A study of Mus musculus with 23 samples.

Results

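Mouse embryonic stem cells in which RAS had been deleted and ERF was wild type were compared in FA and in 2iL. The comparison used the 3 FA and the 3 2iL libraries that carry this genotype in their labels, 6 of 23 libraries in the series, and 20372 of 53607 gene rows were abundant enough to be tested. All lines of the study are H-Ras-/-;N-Ras-/- and carry Ubiq-CreERT2, a Cre recombinase that 4-hydroxytamoxifen switches on. The RAS-deleted libraries came from cells given 4-hydroxytamoxifen for 6 days, and the libraries with RAS present, used below as the reference line, had none, so drug and deletion cannot be told apart. 2iL is N2B27 with the MEK inhibitor PD0325901, the GSK3 inhibitor CHIR99021 and LIF. FA cells were kept on fibronectin for 48 hours in N2B27 with 1% KOSR, 12 ng/ml FGF2 and 20 ng/ml Activin A. The reference line, also ERF wild type, has 3 libraries in 2iL and 2 in FA, and the RAS-deleted line labelled ERF knockout has 3 in each medium. The labels do not say whether replicates of a group were grown apart, so p-values measure the spread between these libraries, which may be partly technical.

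FA drives naive embryonic stem cells toward cells like the early post-implantation epiblast. In that passage FGF2 normally signals through RAS to the kinase ERK, and ERK inactivates ERF, a repressor of the ETS family. Activin signals through receptors that act on SMAD2 and SMAD3. CHIR99021 in 2iL stabilises beta-catenin and so activates Wnt target genes, and LIF activates STAT3. A move from 2iL to FA therefore changes these 4 inputs, along with the fibronectin and KOSR, and each of the 4 has well-known target genes that were read separately here.

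The 6 libraries held 19.1 to 25.6 M counts, of which the most abundant gene row took 17.6 to 25.1%. The FA libraries differed more among themselves than the 2iL libraries did, with a median SD of 0.13 on the log2 scale against 0.0835. On chromosome 8 (571 genes) replicate 1 stood above its group by a median log2 of 0.206 in 2iL and 0.218 in FA, while the other 4 libraries lay from -0.113 to -0.0955. Without both replicate 1 libraries, a setting chosen after seeing the data, the comparison gave 3423 calls, against 3371 with them. Hras and Nras transcripts were still counted, Hras at 12.7 to 19.9 CPM and Nras at 38.1 to 45.7 CPM over the 6 libraries. Both genes are labelled -/- in all lines, the reference line included, so their counts cannot check the deletion by 4-hydroxytamoxifen. The RAS state is given as labelled. Erf was expressed at 83.0 to 90.2 CPM in 2iL and at 66.8 to 74.5 CPM in FA. Of the markers that define the cells, the 3 shared by all pluripotent cells summed to 1035 to 1128 CPM in 2iL and 1125 to 1179 CPM in FA. Markers of naive cells summed to 2605 to 2711 CPM in 2iL and 999.5 to 1549 CPM in FA, and markers of epiblast-like cells to 51.2 to 63.7 CPM and 102.4 to 290.5 CPM. The largest part of the naive sum in 2iL was Tfcp2l1, at 1101 to 1225 CPM and at 156.8 to 251.7 CPM in FA. Zfp42 was not lower in FA (263.0 to 322.3 CPM in 2iL, 306.5 to 442.5 CPM in FA), and Nanog overlapped. Dnmt3b made up most of the epiblast-like sum, at 44.0 to 57.1 CPM in 2iL and 62.0 to 187.2 CPM in FA. Markers of mesoderm summed to at most 1.26 CPM and those of fibroblast feeder cells to at most 5.54 CPM, with Postn at 0. In bulk RNA fewer cells of a type and less RNA per cell cannot be told apart.

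In FA without RAS, 2029 genes rose (9.96% of those tested) and 1342 fell (6.59%) (adjusted p under 0.05 and 2-fold or more). The CPM ranges of the 3 FA and 3 2iL libraries did not overlap for 50.7% of tested genes, and the median log2 change over all tested genes was 0.01. The Activin target Lefty1 rose, the Wnt targets Cdx1 and Sp5 and the LIF target Socs3 fell, and of 13 tested feedback genes and PEA3 factors of the ERK pathway 1 rose and 4 fell. The plot of 12 genes by library shows one pair of genes for each input and for each of the naive and primed states.

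**Figure D1:**
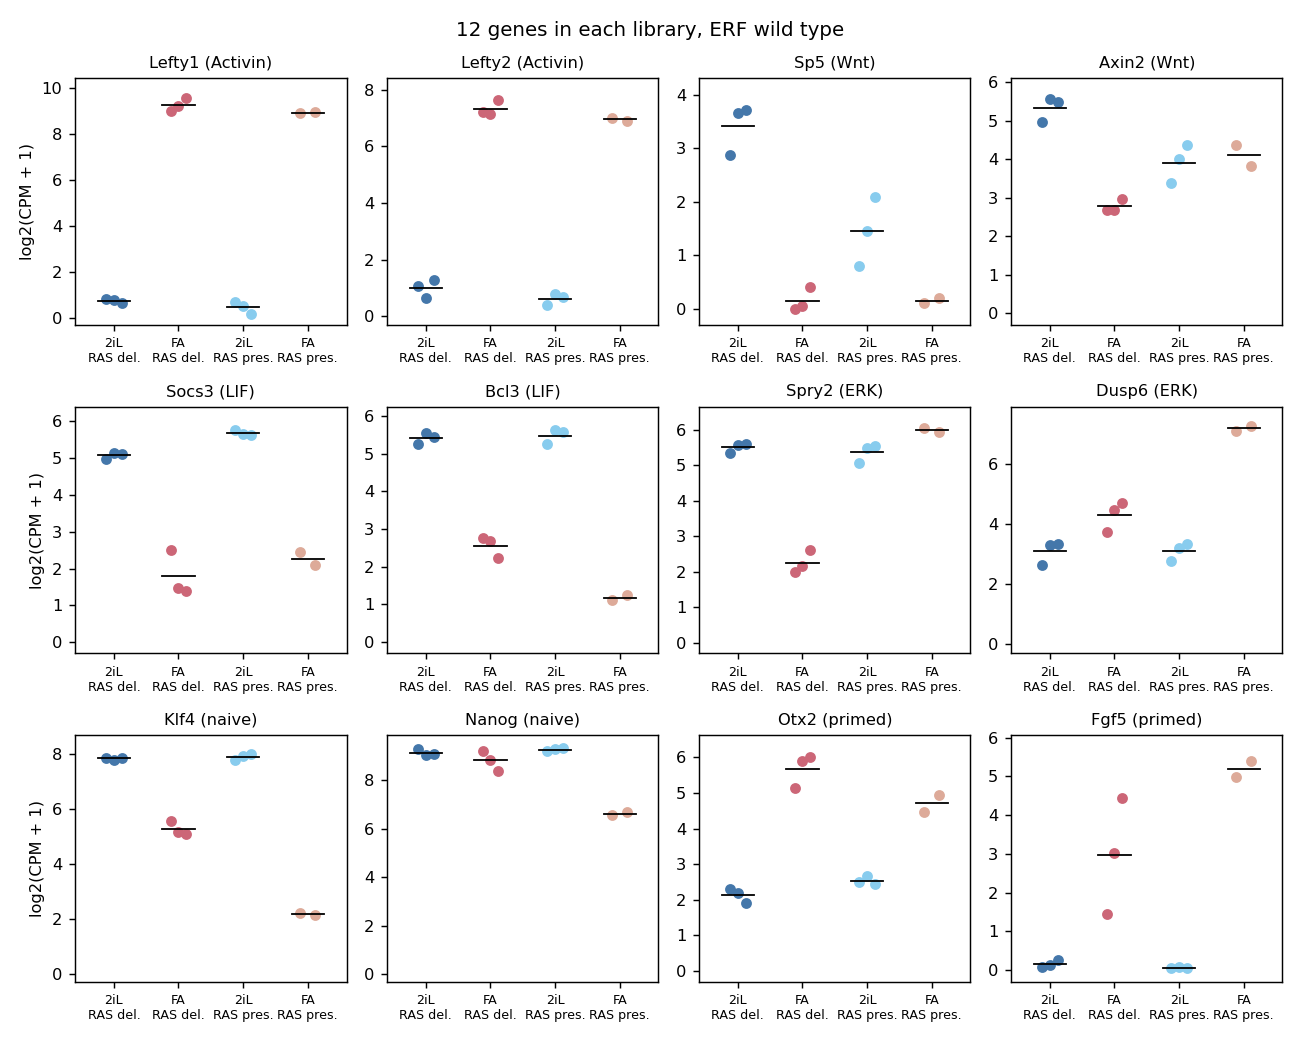
Expression of 12 genes in each library as log2(CPM + 1), in 2iL and FA with RAS deleted (n = 3 and 3) and with RAS present (n = 3 and 2), ERF wild type throughout; points are libraries and bars are means. Lefty1 and Lefty2 were high in FA in both lines, Spry2 was lower in the FA libraries without RAS than in the other 3 groups, and Fgf5 differed widely between the 3 FA libraries without RAS.

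The promoters of 4 of these responding genes are printed to show the sequence next to the start site of a Wnt target, a STAT3 target, an ERK feedback gene and a primed-state gene. They run from 250 bases before to 50 after the start site and come from RefSeq on GRCm38.p6, and they were chosen after the values were seen. Capitals mark a match, on either strand, to one motif for each gene: CTTTGAT for TCF/LEF factors in Sp5, TTCNNNGAA for STAT factors in Socs3, and CCGGAA, the core bound by ETS factors, in Spry2 and Fgf5, where Fgf5 shows it as its reverse complement. The windows are chr2:70474673-70474972 (Sp5, plus strand), chr11:117969317-117969616 (Socs3, minus strand), chr14:105896770-105897069 (Spry2, minus strand) and chr5:98253934-98254233 (Fgf5, plus strand).
Sp5: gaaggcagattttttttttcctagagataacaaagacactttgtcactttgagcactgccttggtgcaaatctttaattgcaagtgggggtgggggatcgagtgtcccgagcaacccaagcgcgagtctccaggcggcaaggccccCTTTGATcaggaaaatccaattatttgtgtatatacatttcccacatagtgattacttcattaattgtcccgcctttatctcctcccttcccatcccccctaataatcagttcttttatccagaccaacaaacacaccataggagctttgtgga
Socs3: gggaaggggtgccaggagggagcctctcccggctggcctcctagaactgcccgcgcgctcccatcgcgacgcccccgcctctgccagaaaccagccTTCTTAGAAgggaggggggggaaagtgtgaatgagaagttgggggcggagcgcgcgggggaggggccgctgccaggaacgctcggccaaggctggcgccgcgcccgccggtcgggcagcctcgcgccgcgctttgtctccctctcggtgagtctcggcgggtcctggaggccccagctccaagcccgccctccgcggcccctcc
Spry2: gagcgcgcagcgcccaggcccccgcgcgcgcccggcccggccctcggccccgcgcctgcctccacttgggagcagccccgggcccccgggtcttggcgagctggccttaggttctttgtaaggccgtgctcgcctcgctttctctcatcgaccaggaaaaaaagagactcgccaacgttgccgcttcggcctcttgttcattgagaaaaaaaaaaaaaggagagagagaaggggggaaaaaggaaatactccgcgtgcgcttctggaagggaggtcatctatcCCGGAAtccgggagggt
Fgf5: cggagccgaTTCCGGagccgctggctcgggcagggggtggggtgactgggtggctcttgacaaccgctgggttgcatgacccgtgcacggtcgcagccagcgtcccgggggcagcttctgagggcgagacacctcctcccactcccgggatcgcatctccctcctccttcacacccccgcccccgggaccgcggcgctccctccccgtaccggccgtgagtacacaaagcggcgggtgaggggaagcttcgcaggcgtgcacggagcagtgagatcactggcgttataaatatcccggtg
The TCF/LEF motif lies 104 bases before the start site of Sp5 and occurs in 3.73% of all 32851 promoter windows and 2 of 19 windows of the Wnt list. The STAT motif lies 154 bases before the start of Socs3 and occurs in 8.3% of all windows and 2 of 15 of the LIF and STAT3 list. The ETS core begins 34 bases after the start of Spry2 and 241 before that of Fgf5, and occurs in 14.9% of all windows. That is more than in the windows of the ERK feedback list (8.33%, 1 of 12) and of the primed list (5%, 1 of 20), where the printed promoter is the only one that holds it. These are matches of letters and not shown to be bound.

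Activin and Nodal signalling induces its own inhibitors. Lefty1, a secreted inhibitor of Nodal, stood at 0.753, 0.710 and 0.581 CPM in the 2iL libraries and at 514, 591 and 741 CPM in the FA libraries, a log2 change of 9.81 (SE 0.22, adjusted p 7.12e-18). Its relative Lefty2 went from 0.558 to 1.45 CPM in 2iL to 138 to 197 CPM in FA (log2 change 7.28, SE 0.27, adjusted p 4.46e-13). Skil, a co-repressor that limits SMAD activity, rose from 53.2 to 58.5 CPM to 150 to 275 CPM (log2 change 1.93). None of the 3 genes overlapped between the media.

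With RAS present the log2 changes of Lefty1, Lefty2 and Skil were 10.15, 7.89 and 2.56. The difference between the lines, RAS deleted minus RAS present, was -0.34 for Lefty1 (SE 0.44, adjusted p 0.639) and -0.61 for Lefty2 (SE 0.53, adjusted p 0.457). For Skil it was -0.63 (adjusted p 0.0339), under the 2-fold minimum. Over the 20 tested genes of the Nodal and Activin list these 3 rose and 2 fell (against 9.96% and 6.59% of all tested genes). The median log2 change was 0.32, with 12 above and 5 below in all FA libraries compared with all 2iL libraries (25.3% of all tested genes in each direction). The 2 that fell were Inhbb, which encodes an activin subunit, from 10.2 to 10.3 CPM to 1.15 to 5.00 CPM (log2 change -2.02, and -2.90 without FA replicate 1), and the receptor gene Acvr1b (log2 change -1.18). Nodal itself (0.78), its co-receptor Tdgf1 (-0.75) and the SMAD partner Foxh1 (0.85) stayed under the 2-fold minimum.

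Wnt target genes were among the deepest falls. Cdx1, a homeobox gene, stood at 51.0, 42.6 and 41.8 CPM in 2iL and at 0.263, 0.0810 and 0.0719 CPM in FA, a log2 change of -8.35 (SE 0.31, adjusted p 1.49e-14). Without FA replicate 1 it was -9.11. Sp5, a zinc finger factor that Wnt signalling induces and whose promoter is printed above, stood at 6.34, 11.6 and 12.2 CPM in 2iL and at 0, 0.0405 and 0.324 CPM in FA (log2 change -6.20, SE 0.58, adjusted p 2.49e-08, and -8.55 without FA replicate 3). The 2 genes were near 0 in every FA library. Axin2, the feedback inhibitor of beta-catenin, went from 30.3, 46.1 and 43.6 CPM to 5.39, 5.43 and 6.83 CPM, a log2 change of -2.76 (SE 0.22, adjusted p 7.53e-09).

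In the reference line Axin2 stood at 14.7 ± 5.2 CPM in 2iL (SD, n = 3) and at 16.4 ± 4.5 CPM in FA (SD, n = 2), a log2 change of 0.18 (adjusted p 0.554). The difference between the lines was -2.94 (SE 0.32, adjusted p 1.06e-06). Mean levels in 2iL lay apart as well, though a difference within 2iL was not tested. Axin2 stood at 40.0 ± 8.5 CPM and Sp5 at 10.0 ± 3.2 CPM without RAS (SD, n = 3), against Sp5 at 1.90 ± 1.3 CPM with it (SD, n = 3). Sp5 fell in both lines, and the difference of -2.08 did not pass (adjusted p 0.281). Rnf43, which removes Wnt receptors, fell by 2.44 on the log2 scale from at most 1.12 CPM. Cdx2, also a trophoblast factor, fell from 0.914 to 1.84 CPM to at most 0.180 CPM.

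Not all of the pathway fell. Lef1, a transcription factor that carries the Wnt signal, rose from 2.58, 3.60 and 3.00 CPM to 8.32, 21.4 and 46.8 CPM (log2 change 3.06, SE 0.53, adjusted p 0.00021, and 2.28 without FA replicate 3). Its FA libraries lay far apart, and all lay above the 2iL libraries. The ligand genes Wnt3 and Wnt8a also passed, with log2 changes of 2.10 and 2.29, but only FA replicate 3 exceeded 0.770 CPM for either, and without that library they gave 1.05 (adjusted p 0.155) and 0.79 (adjusted p 0.380). Wnt8a also lost its call without any single 2iL library (adjusted p 0.0525 to 0.0765). Notum, a secreted Wnt inhibitor, went from 15.5 to 19.9 CPM to 30.8 to 37.7 CPM, a log2 change of 0.99 just under the minimum. It passed with other size factors, DESeq2 or the replicate block (1.00 to 1.12). In the reference line it fell by 2.04. Of 17 tested genes of the Wnt list 6 fell and 3 rose (against 6.59% and 9.96% of all tested genes), with a median of -0.13, and without FA replicate 3 the counts were 5 and 1. The sixth that fell was Apcdd1, an inhibitor at the cell membrane, at the 2-fold limit. It lost its call, leaving 5 that fell, with other size factors, no low-count filter, DESeq2 or only the compared groups in the fit (-0.89 to -0.995). The same held without FA replicate 3 (-0.73), FA replicate 2 (-0.98) or 2iL replicate 1 (-0.94).

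Of 13 tested genes of the LIF and STAT3 list 3 fell here and none rose (against 6.59% and 9.96% of all tested genes), with a median of -0.05. Socs3, the feedback inhibitor of the LIF receptor, stood at 30.3, 34.2 and 33.7 CPM in 2iL and at 4.64, 1.78 and 1.62 CPM in FA, a log2 change of -3.64 (SE 0.22, adjusted p 1.43e-10, and -4.27 without FA replicate 1). The reference line gave -3.69, a difference of 0.05 (SE 0.33, adjusted p 0.941). Bcl3, a nuclear cofactor of NF-kappaB and a STAT3 target, went from 37.5, 45.5 and 42.8 CPM to 5.74, 5.47 and 3.67 CPM, a log2 change of -3.09 (SE 0.13, adjusted p 8.89e-14). Its fall with RAS present was deeper, -5.13, and the difference of 2.04 passed (adjusted p 8.01e-07). Stat3 itself fell from 64.7 to 70.3 CPM to 26.3 to 29.3 CPM (log2 change -1.25). The receptor genes Lifr (-0.05) and Il6st (-0.15) did not pass.

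The feedback genes of the ERK pathway are often read for its activity, which these libraries do not measure. The 2iL cells that serve as the baseline here were kept in a MEK inhibitor. Spry2, an inhibitor of receptor tyrosine kinase signalling, stood at 39.8, 46.4 and 47.8 CPM in 2iL and at 2.94, 3.44 and 5.14 CPM in FA, a log2 change of -3.52 (SE 0.16, adjusted p 1.12e-12). In the reference line Spry2 stood at 40.7 ± 7.4 CPM in 2iL (SD, n = 3) and at 62.7 ± 3.1 CPM in FA (SD, n = 2), and the difference between the lines was -4.15 (SE 0.22, adjusted p 1.9e-11). In FA the ranges of the 2 lines were far apart, while the 2iL mean without RAS was 44.7 ± 4.3 CPM (SD, n = 3). Etv4, an ETS factor of the PEA3 group, went from 30.3, 38.0 and 40.4 CPM to 2.58, 4.82 and 5.64 CPM (log2 change -3.04, SE 0.20, adjusted p 1.64e-10), against -0.40 with RAS present. Its close relative Etv5 stayed at 225 to 316 CPM in FA against 266 to 323 CPM in 2iL (log2 change -0.14, adjusted p 0.290).

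Spred1, which holds RAF inactive, fell from 22.8 to 26.6 CPM to 11.3 to 12.4 CPM (log2 change -1.10, SE 0.09), where the reference line rose by 2.00. Il17rd, an antagonist of FGF signalling, fell by 1.02 on the log2 scale where the reference line rose by 2.34. Its value lies near the 2-fold limit and was -0.94 without FA replicate 2, -0.95 without FA replicate 3 and -0.99 without 2iL replicate 1. Dusp6, the ERK phosphatase, rose from 5.22, 8.88 and 9.15 CPM to 12.3, 21.3 and 25.4 CPM (log2 change 1.35, SE 0.22, adjusted p 9.01e-05). With RAS present Dusp6 rose by 4.25, to 146 ± 12 CPM (SD, n = 2), and the difference of -2.90 passed (adjusted p 2.44e-06). Spry4 was near 0 in these 6 libraries, at 0.194 to 0.215 CPM in 2iL and 0.0876 to 0.527 CPM in FA, while the reference line reached 31.9 ± 9.0 CPM (SD, n = 2). Without FA replicate 1 its log2 change of 1.15 passed (adjusted p 0.0484). Dusp4 had a log2 change of 1.04 that did not pass (adjusted p 0.0524). It passed in a fit of only the compared groups without the replicate block (1.04, adjusted p 0.00373) and with it (1.02, adjusted p 0.00288), and with DESeq2 (adjusted p 0.0202).

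Of the 13 tested genes of this list 1, Dusp6, rose and 4 fell here (against 9.96% and 6.59% of all tested genes), with a median of 0.13. Without FA replicate 1, 3 rose and 4 fell, with Dusp4 and Spry4 the added calls. In the reference line 8 rose and none fell, with a median of 1.82, where 13.2% of all genes rose and 10.8% fell. The difference between the lines passed for 9 of the 13, all lower without RAS (5.3% of all tested genes). The immediate early genes moved little, with Fos (-1.02, and -0.77 without FA replicate 3 and -0.89 without 2iL replicate 2) the 1 call among 12 tested. Among 26 tested components of the pathway 1 rose and 2 fell, no larger share than the 16.5% called among all tested genes. Fgfr2, an FGF receptor gene, rose from 1.67, 2.99 and 2.23 CPM to 50.3, 80.9 and 107 CPM (log2 change 5.11, SE 0.31, adjusted p 4.42e-10). It rose more than in the reference line, 2.94, and the difference of 2.17 passed (adjusted p 0.00187). Mras, a RAS-related GTPase gene, fell by 2.05 on the log2 scale and the receptor gene Fgfr4 by 1.57.

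**Figure D2:**
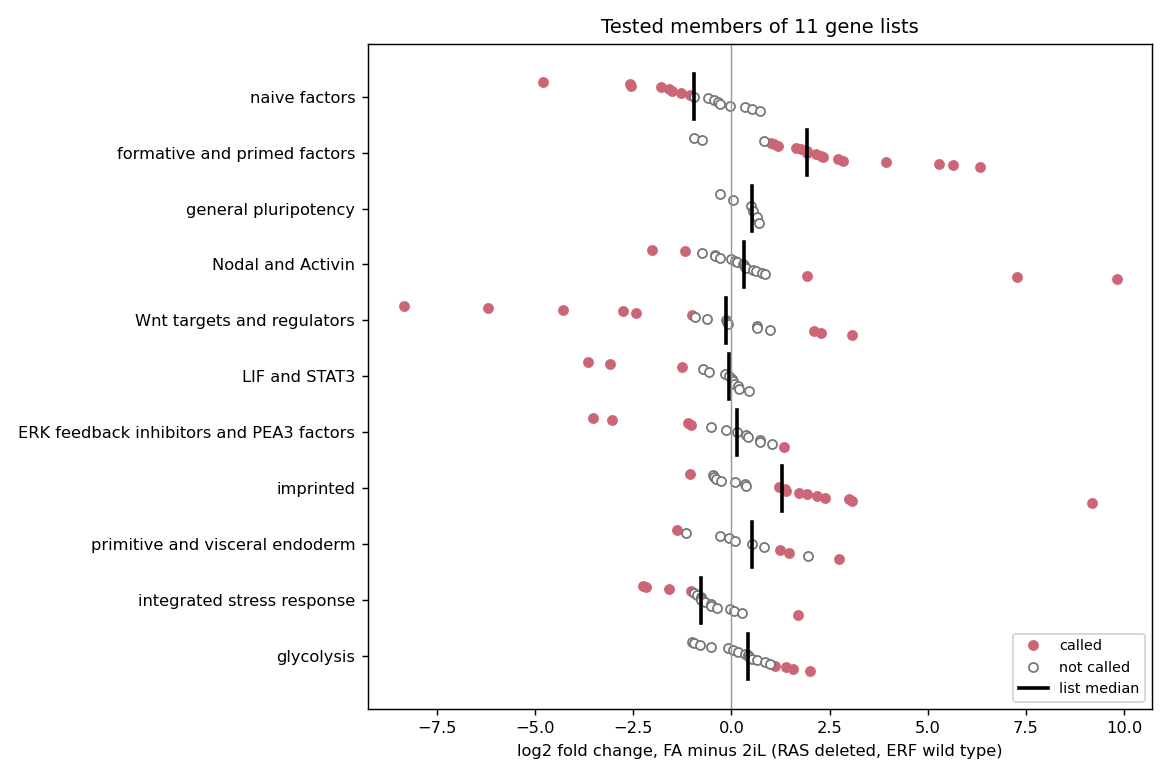
Log2 fold change, FA minus 2iL with RAS deleted and ERF wild type, of every tested member of 11 gene lists; filled points passed the adjusted p and the 2-fold minimum, open points did not, and the bar is the list median. The primed list has a median of 1.93 and the naive list one of -0.95, while the ERK feedback list lies on both sides of 0.

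Of the 17 tested naive factors 8 fell and none rose (against 6.59% and 9.96% of all tested genes), with a median log2 change of -0.95, and 9 fell without both replicate 1 libraries. Klf4 stood at 233, 221 and 233 CPM in 2iL and at 46.4, 35.1 and 32.6 CPM in FA, a log2 change of -2.59 (SE 0.12, adjusted p 4.69e-13). Tfcp2l1 went from 1101 to 1225 CPM to 157 to 252 CPM (log2 change -2.57, SE 0.16, adjusted p 1.15e-10). Both are transcription factors of the naive network. Tdh, the threonine dehydrogenase that mouse embryonic stem cells depend on, went from 235, 430 and 295 CPM to 15.7, 11.1 and 7.94 CPM (log2 change -4.79, SE 0.39, adjusted p 7.02e-08). Klf5 (-1.79), Nr5a2 (-1.59), Tbx3 (-1.50) and Dppa3 (-1.28) fell by less. Esrrb, an orphan nuclear receptor, fell from 377, 387 and 441 CPM to 221, 185 and 172 CPM, with a log2 change of -1.06 that was -0.98 without FA replicate 3 and -0.99 without 2iL replicate 3.

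The other 9 did not pass. Nanog stood at 610, 525 and 541 CPM in 2iL and at 588, 453 and 331 CPM in FA, a log2 change of -0.29 (SE 0.15, adjusted p 0.119), and the groups overlapped. Zfp42, the naive marker Rex1, stood at 322, 263 and 271 CPM in 2iL and at 442, 348 and 306 CPM in FA (log2 change 0.36, adjusted p 0.100). Prdm14, a repressor of primed and germ layer genes, stood at 36.2 to 39.2 CPM and at 22.1 to 35.8 CPM (log2 change -0.45, adjusted p 0.0423). In the reference line these 3 genes fell by 2.65, 3.21 and 5.61 on the log2 scale. Klf2 had a log2 change of -0.02, and Fgf4, the stem cells' own FGF, one of 0.74. Nr0b1 (-0.95) passed without 2iL replicate 1 (-1.02).

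The reference line called 15 of the 17 naive genes lower and 1 higher (against 10.8% and 13.2% of all tested genes in that line), with a median of -3.36. The difference between the lines was positive and passed for 14 of the 17, against 6.6% of all tested genes. Of the 14, Zfp42, Fgf4 (0.74) and Pecam1 (0.53) had positive changes without RAS, none of which passed the 2-fold minimum. The difference was 5.17 for Prdm14 (SE 0.35, adjusted p 1.04e-09), 3.56 for Zfp42 (SE 0.27, adjusted p 2.06e-08) and 3.50 for Klf4 (SE 0.20, adjusted p 4.59e-11). It did not pass for Tdh (0.73, adjusted p 0.405) or Klf5 (0.20, adjusted p 0.480), both of which fell in each line. Gbx2 was the 1 naive gene with a negative difference (-3.10, adjusted p 1.05e-06), since it rose by 2.75 with RAS present and had a log2 change of -0.35 without it.

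Formative and primed factors rose. Of the 19 tested genes 16 rose and none fell (against 9.96% and 6.59% of all tested genes), with a median of 1.93, and 16 rose without both replicate 1 libraries. Otx2, the homeobox factor of the early primed epiblast, stood at 3.92, 3.55 and 2.76 CPM in 2iL and at 34.4, 58.3 and 63.6 CPM in FA (log2 change 3.94, SE 0.20, adjusted p 5.81e-12). It rose more than in the reference line, 2.41, with a difference of 1.52 (SE 0.29, adjusted p 0.000583), the 1 positive difference of the list that passed. Dnmt3l, the cofactor of de novo DNA methylation, went from 4.46, 4.26 and 3.48 CPM to 112, 207 and 287 CPM (log2 change 5.64, SE 0.32, adjusted p 5.65e-10). Dnmt3a went from 39.6 to 48.9 CPM to 169 to 210 CPM (2.15). The neural and epiblast factors Sox3 (2.83), Sox4 (2.33), Zic2 (1.92) and Zic5 (1.64) and the chromatin factor Utf1 (1.76) rose as well. For Dnmt3a, Dnmt3l, Zic2 and Zic5 the difference from the reference line did not pass.

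Fgf5, the classical marker of the primed epiblast, stood at 0.0538, 0.102 and 0.194 CPM in 2iL and at 1.71, 7.13 and 20.6 CPM in FA (log2 change 6.32, SE 0.95, adjusted p 5.51e-05, and 5.17 without FA replicate 3). The reference line reached 35.8 ± 7.3 CPM (SD, n = 2), above each of these, but the difference of -3.15 had an SE of 2.80 and did not pass (adjusted p 0.470). Pou3f1, a POU factor of the same state, went from 2.61 to 3.28 CPM to 4.38, 9.44 and 19.2 CPM. Its log2 change was 1.93 (SE 0.42, adjusted p 0.00142), 1.25 without FA replicate 3, and it lost its call with the replicate block (1.74, adjusted p 0.0536). The reference line reached 72.3 ± 19 CPM (SD, n = 2), and the difference of -2.49 passed (adjusted p 0.00626). Dnmt3b, a de novo methyltransferase, stood at 44.0, 57.1 and 54.1 CPM in 2iL and at 62.0, 105 and 187 CPM in FA, a log2 change of 1.19 (adjusted p 0.00312) that was 0.69 without FA replicate 3 and did not pass in a fit of only the compared groups, without the replicate block (1.20, adjusted p 0.0509) or with it (1.07, adjusted p 0.0614). Without FA replicate 3 the count of primed genes that rose was 12, since Dnmt3b, Pim2 (0.84), Sall2 (0.996) and Wnt8a lost their calls. Grhl2 passed as a fall without that library (-1.06) or without 2iL replicate 2 (-1.01). A fit of only the compared groups tested 18 of the 19 and called 14 higher without the replicate block and 13 with it.

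The difference between the lines was negative and passed for 10 of the 19 primed genes (against 5.3% of all tested genes). None of the 6 general pluripotency genes passed the 2-fold minimum: Pou5f1 had a log2 change of -0.28, Sox2 of 0.05 and Sall4 of 0.54. Sox2 fell by 1.65 in the reference line, with a difference of 1.70 (SE 0.17, adjusted p 1.09e-07).

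**Figure D3:**
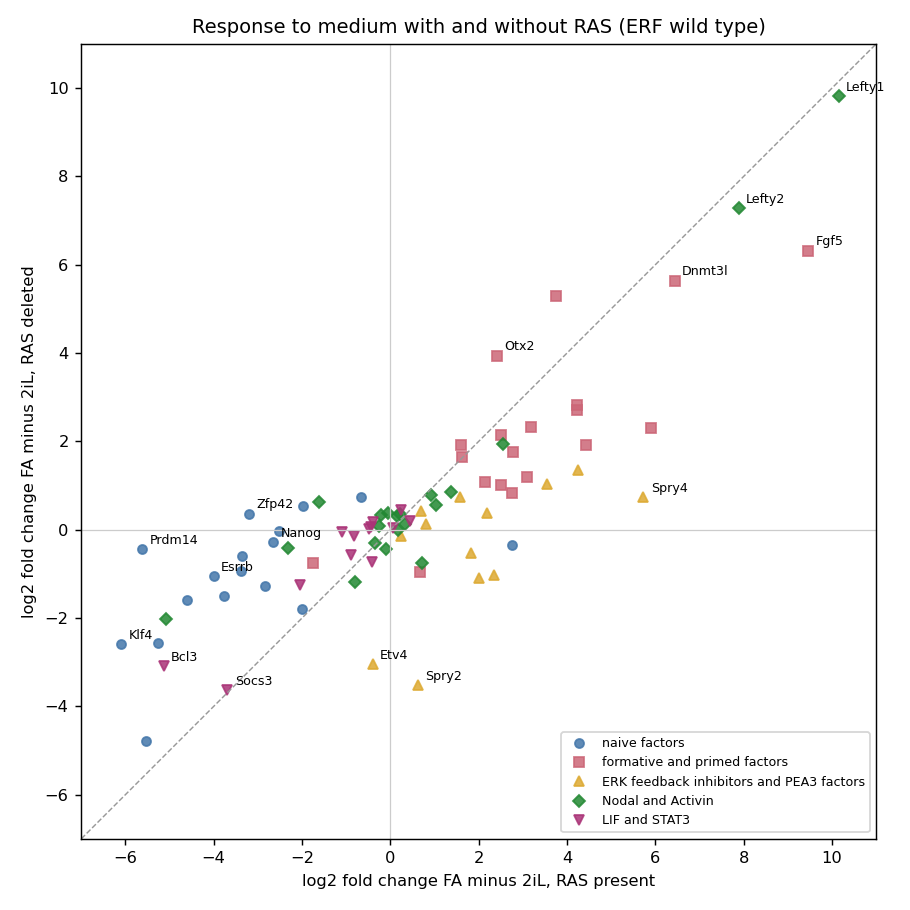
Log2 fold change FA minus 2iL of the tested members of 5 gene lists with RAS deleted (vertical axis) against RAS present (horizontal axis), ERF wild type; the dashed line marks equal changes, and the 2 axes share no library. Lefty1 and Lefty2 lie near the line, most naive genes lie above it at left, and Spry2 and Etv4 lie far below it.

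Beyond these pathways, 10 of 18 tested imprinted genes rose and 1 fell (against 9.96% and 6.59% of all tested genes), with a median of 1.28. H19, a noncoding RNA, stood at 0.161, 0.355 and 0.242 CPM in 2iL and at 69.3, 156 and 229 CPM in FA (log2 change 9.19, SE 0.63, adjusted p 8.77e-09). Mest went from 16.4 to 23.7 CPM to 128 to 193 CPM (2.99), Peg3 from 102 to 123 CPM to 299 to 865 CPM (2.37), and the growth factor gene Igf2 from 0.774 to 1.29 CPM to 4.78 to 11.4 CPM (3.08). The differences of H19, Mest, Peg3 and Igf2 from the reference line did not pass, and that of Peg10 did (-3.52, adjusted p 3.25e-09), which rose by 2.19 here and by 5.71 with RAS present. Phlda2, the 1 that fell (-1.04), was -0.86 without FA replicate 1, -0.96 without FA replicate 2 and -0.79 without 2iL replicate 1. Lin28a, the RNA-binding protein that blocks let-7 maturation, rose from 4.74 to 6.80 CPM to 71.4, 149 and 232 CPM (log2 change 4.76, SE 0.38, adjusted p 5.07e-08).

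Among 18 tested genes of glycolysis 4 rose and none fell (against 9.96% and 6.59% of all tested genes), and without FA replicate 1 the counts were 5 and 2. The 4 were the glucose transporter gene Slc2a1 (2.01), Pfkl (1.58), Eno1 (1.40) and Pkm (1.11). Of 17 tested genes of the integrated stress response, which amino acid shortage induces, 4 fell and 1 rose (against 6.59% and 9.96% of all tested genes), with a median of -0.77. Asns, asparagine synthetase, went from 496 to 576 CPM to 71.9 to 157 CPM (log2 change -2.26, SE 0.26, adjusted p 2.12e-06), and Nupr1 (-2.18) and Trib3 (-1.60) also fell. Slc7a11, the fourth, lay at the limit (-1.02, and -0.89, -0.92 and -0.92 without FA replicate 1, FA replicate 3 and 2iL replicate 1). Among 16 tested cell cycle genes Ccnd2, a D-type cyclin gene, rose by 5.66 (4.52 without FA replicate 3), the inhibitor gene Cdkn1c by 3.35 and Mycn by 1.08 (0.95 without FA replicate 3), while Cdk6 (-1.22) and the p53 target Cdkn1a (-1.17) fell. Myc rose by 2.39 (1.32 without FA replicate 3), from at most 0.609 CPM to 0.833, 1.70 and 5.32 CPM, where the reference line reached 41.0 ± 7.8 CPM (SD, n = 2), a difference of -4.47 (adjusted p 0.00215). Basement membrane collagen genes Col4a1 (3.08), Col4a2 (2.12) and Col18a1 (1.91) rose among 16 tested matrix genes, and the basement membrane genes Lama1 (-1.68), a laminin, and Nid1 (-1.07, and -0.86 without FA replicate 3) fell. Col4a1 and Col4a2 lie on chromosome 8, where both replicate 1 libraries stood high, and their FA values were 101 to 175 CPM and 45.0 to 69.6 CPM against 14.4 to 17.3 CPM and 11.5 to 14.4 CPM in 2iL. None of 20 tested genes of cholesterol and fatty acid synthesis passed, and 1 fell without FA replicate 1.

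Markers of trophoblast summed to 8.17 to 9.57 CPM in 2iL and 20.8 to 21.2 CPM in FA, with Gata3 alone at 2.76 to 3.60 CPM and 17.5 to 18.5 CPM of it, and neural markers to 8.86 to 10.4 CPM and 14.7 to 22.9 CPM. Among 11 tested primitive and visceral endoderm genes 3 rose and 1 fell (against 9.96% and 6.59% of all tested genes). In the reference line 8 rose (against 13.2% of all tested genes) and none fell, and the difference passed for 8, all negative (against 5.3% of all tested genes). Gata6, an endoderm factor, fell from 2.69 to 3.71 CPM to 0.719 to 1.62 CPM (log2 change -1.38), where the reference line reached 19.2 ± 8.0 CPM (SD, n = 2), a difference of -3.31 (SE 0.45, adjusted p 1.44e-05). Dab2, an endocytic adaptor of visceral endoderm, rose from 2.71 to 3.75 CPM to 6.69 to 8.63 CPM (1.24), against 69.0 ± 20 CPM (SD, n = 2) in the reference line. In the early neural list 4 of 11 rose (against 9.96% of all tested genes). One of them, Neurog1 (1.59), lost its call without any single 2iL library (adjusted p 0.0606 to 0.167). The others included Pax6, from 0.538, 0.964 and 0.823 CPM to 5.17, 9.16 and 13.1 CPM (log2 change 3.55), and Ncam1, an adhesion molecule gene, from 15.9 to 18.7 CPM to 79.0 to 83.1 CPM (2.24). Ncam1 did not pass in the reference line (-0.11), and the difference of 2.35 passed (SE 0.18, adjusted p 1.87e-09). Gata3, a trophoblast factor, rose from 2.76 to 3.60 CPM to 17.5 to 18.5 CPM (log2 change 2.46) where the reference line fell by 1.63, a difference of 4.09 (SE 0.31, adjusted p 1.89e-09). The other called trophoblast genes, Cdx2, Krt7 (-1.42) and Tfap2c (-1.21), fell, so 1 rose and 3 fell among 13 (against 9.96% and 6.59% of all tested genes).

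The 12 largest fitted rises outside predicted genes included Cldn2, a pore-forming claudin gene, at 0 counts in every 2iL library and at 4.86, 6.69 and 9.27 CPM in FA, at least 45.4-fold higher against a floor of 3 counts per library. The others were Lefty1, H19, Car4, Aire, Lefty2, Myrf, R3hdml, Syt13, Fgf5, Slc16a3 and Fgfbp1. Car4, a membrane carbonic anhydrase gene, was at least 117-fold higher, and R3hdml at least 33.8-fold. The fitted values of genes at the floor in 2iL are not bounds, so their place among the 12 is not shown. Slc16a3, a lactate exporter gene, stood at 0.507 to 1.67 CPM in 2iL and at 52.5, 93.8 and 132 CPM in FA (log2 change 6.30). Aire, better known from the thymus, stood at 0.0968 to 0.215 CPM in 2iL and at 18.9, 38.4 and 46.5 CPM in FA (7.94). The 12 largest fitted falls were Cdx1, Sp5, Pdzrn4, Epp13, Tdh, Ccbe1, Serpina3i, Sh2d4b, Hal, Ctsc, Ceacam10 and Ggt1. Pdzrn4 was at the floor in FA and at least 46.87-fold lower there, so its place among the 12 is not shown either. Ctsc, a lysosomal protease gene, went from 42.3, 31.4 and 31.4 CPM to 2.63, 1.62 and 0.863 CPM (log2 change -4.39), deeper than the -1.30 of the reference line, with a difference of -3.09 (adjusted p 8.82e-08). Serpina3i and Ceacam10 belong to families of similar genes, among which reads could have been divided.

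The 3 FA libraries were not alike. Among the 2029 genes that rose, FA replicate 1 was the least changed library for 62.4% and FA replicate 3 the most changed for 55.0%; among the 1342 that fell, the shares were 63.6% and 59.6%. Median log2 changes of the rising genes, on the log2(CPM + 1) scale, were 0.74, 0.93 and 1.00 in FA replicates 1, 2 and 3, and of the falling genes -0.76, -0.96 and -1.08. Of 6566 genes with a mean of at least 20 CPM in FA, 130 spanned more than 2-fold, and the median span was 0.22 on that scale. The 5 widest were Ccnd2 (13.1, 43.0 and 129 CPM), Fgf15 (5.57, 17.7 and 41.1 CPM), Lef1, Zscan4f (202, 98.7 and 44.2 CPM) and Tmem92 (37.1, 15.2 and 8.02 CPM). Zscan4f, a gene of the two-cell-like state that a few stem cells enter, was highest in the library where Fgf5 was lowest, and the two-cell-like markers summed to 46.0 to 174.8 CPM in FA against 32.5 to 47.6 CPM in 2iL. Most of that sum was Zscan4c and Zscan4d. Of the other markers Zfp352 was lower in FA (0.503 to 0.689 CPM) than in 2iL (0.823 to 1.18 CPM). Tcstv1 and Tcstv3 exceeded their 2iL ranges only in FA replicate 1. Zscan4f, Zscan4c and Zscan4d are near-identical copies, so their counts are uncertain one by one. What sets the FA libraries apart was not tested.

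**Figure D4:**
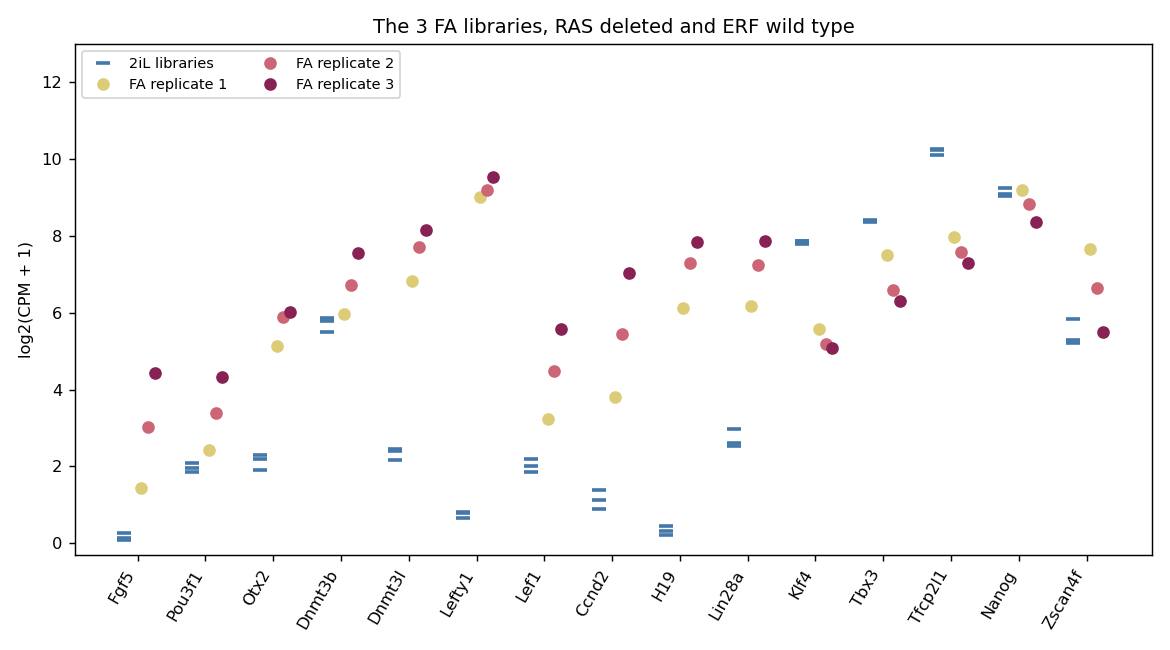
Expression as log2(CPM + 1) of 15 genes in the 3 2iL libraries (bars) and in FA replicates 1, 2 and 3 (points) with RAS deleted and ERF wild type. FA replicate 3 was highest for the primed genes Fgf5, Pou3f1 and Dnmt3b and lowest for Klf4, Tbx3, Tfcp2l1, Nanog and Zscan4f.

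Set against the reference line, which called 4891 genes (24% of those tested), 2128 genes were called in both. They changed in the same direction for 2019, which is 59.9% of the calls made here and 41.3% of those with RAS present, 1190 higher and 829 lower in FA. The 2 comparisons share no library. The direct test of the difference called 2425 genes (11.9%), 1345 with a more positive change without RAS and 1080 with a more negative one. Of 1243 genes called only here the difference passed for 427, and of 2763 called only with RAS present for 1202, so most genes called in 1 line alone were not shown to differ.

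Opposite directions were called for 109 genes, a choice that already fixes a large difference between the lines. Higher in FA here and lower there were 66, led by Lax1, Cdhr1, Slc26a9, Fat2 and Msln. Cdhr1, a cadherin-related gene, stood at 10.1, 5.58 and 6.00 CPM in 2iL and at 91.6, 68.7 and 65.8 CPM in FA (log2 change 3.39, SE 0.23, adjusted p 2.78e-10), against -3.11 in the reference line, a difference of 6.50 (SE 0.44, adjusted p 1.56e-09). Fat2, a giant cadherin gene, went from 5.12 to 7.26 CPM to 14.1 to 29.7 CPM (1.80) against -3.91. Lower here and higher there were 43, among them Cdcp1, Pon2, Bspry and Runx1, all at 3.66 CPM or less in the 6 libraries. Cdcp1, a surface glycoprotein gene, fell from 2.74 to 3.66 CPM to 0.745 to 1.18 CPM (-1.89) against 2.26. Bspry and Runx1 lay near the thresholds. Bspry (-1.10) gave -0.99 without FA replicate 2 and -0.95 without 2iL replicate 2. Runx1 (-1.11) lost its call without FA replicate 1, FA replicate 2, 2iL replicate 1 or 2iL replicate 2 (adjusted p 0.0729 to 0.104) and with the replicate block (-1.12, adjusted p 0.0722).

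The same medium change in the RAS-deleted line labelled ERF knockout asks what the absence of ERF changes once RAS is gone. That line called 5076 genes (24.9%), 2958 higher (14.5%) and 2118 lower (10.4%), and the difference, ERF wild type minus ERF knockout, passed for 2308 (11.3%), 1170 positive (5.74%) and 1138 negative (5.59%). Erf transcripts were not lower in the 2iL libraries labelled ERF knockout, at 152 ± 21 CPM (SD, n = 3) against 87.8 ± 4.1 CPM here (SD, n = 3), so that genotype too is given as labelled. The naive genes Klf4 (-6.12), Tfcp2l1 (-5.61) and Esrrb (-4.29) fell further there, with differences of 3.52, 3.04 and 3.24 (adjusted p 1.22e-11, 5.2e-09 and 1.35e-10). Over the 17 tested naive genes the difference passed as positive for 13 and as negative for 2 (against 5.74% and 5.59% of all tested genes). The 2 negative ones were Dppa3 (-1.46, adjusted p 0.0094) and Gbx2 (-1.53, adjusted p 0.00185). Lefty1 (difference -1.01, adjusted p 0.112) and Lefty2 (-0.67, adjusted p 0.357) did not pass. Spry2 fell by 1.78 there and the difference of -1.74 passed (adjusted p 3.13e-06), while Etv4 fell by 4.94 there, further than here, with a difference of 1.90 (adjusted p 0.000517). Dusp6 rose by 1.22 there and by 1.35 here (difference 0.13, adjusted p 0.814). H19 reached a mean of 2.42 CPM in FA there against 69.3 to 229 CPM here, a difference of 7.05 (adjusted p 0.00383).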

How the data were processed

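RNA of 23 samples was depleted of ribosomal RNA and sequenced as 75 bp pairs, per the labels' protocols. The submitters' processing notes list bcl2fastq 2.20.0, fastp 0.20.0, Salmon and mm10; Salmon's version and annotation are not given in the sources used here. The authors deposited estimated counts per gene symbol for each library and a matrix of all 23, which equals those estimated counts within rounding (0 of 1232961 cells differ). The authors' per-library tables also hold TPM, which was not printed. Counts were rounded, filtered with filterByExpr, scaled by TMM and fitted in 1 model of 8 groups with edgeR 4.0.16 (robust quasi-likelihood, R 4.3.3); the filter and fit were tested on simulated data. Calls needed a Benjamini-Hochberg adjusted p below 0.05 and a 2-fold change; "rose" and "fell" mean called. SEs are the log2 change divided by the square root of F. CPM uses TMM-scaled library sizes. A group at or under 3 counts in every library was at the floor, and its fold is a lower bound.

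FA and 2iL libraries with the same number deviated together (r 0.313, 0.106 and 0.13, each above 0.1; 2iL replicate 2 and FA replicate 3 gave 0.177), so a fit with the replicate block, on only the compared groups, was an alternative, with other size factors, filters, DESeq2 1.42.0 and leaving out each library. Replicates of a group differed by more than sampling noise. Named genes are the targets Erf, Hras and Nras (a further target, 1 list gene and 1 ranked gene are not reported here), members of 32 gene lists, and by rank the 12 largest rises and falls with ranges apart and at least 5 CPM, the 5 largest differences each way, the 5 largest opposite pairs each way and the 5 widest ranges among FA libraries. Members, lists and rules were chosen with earlier results of these data known. There were no molecular identifiers, so duplicate reads may share a molecule, and the tests rest on the spread between libraries.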

Additional observations from a re-analysis of the deposited data

Results flagged for a closer look

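The response to FA differed between lines by a test of the difference itself for 2425 genes (RAS deleted minus RAS present, ERF wild type) and for 2308 genes (ERF wild type minus ERF knockout, RAS deleted). The values below are fitted log2 differences from edgeR, ranked among genes with at least 5 CPM in the highest of the 4 group means compared and leaving out predicted genes. The most positive differences by RAS were those of Lax1 (7.17), Aqp3 (6.59), Cdhr1 (6.50), Slc26a9 (6.37) and Jam2 (6.08). Fat2 (5.71) and Msln (5.32) were ranked only among genes called in opposite directions in the 2 lines. Aqp3, a water channel gene, stood at 215 to 270 CPM in 2iL and at 184, 63.8 and 48.8 CPM in FA without RAS, against 1.15 ± 0.15 CPM (SD, n = 2) in FA with RAS. Its fall here, -1.27, was -0.94 without FA replicate 3 and -2.08 without FA replicate 1, and it did not pass in a fit of only the compared groups, without the replicate block (adjusted p 0.0876) or with it (-1.50, adjusted p 0.0731). Jam2, a junction adhesion gene, stayed at 82.8 to 130 CPM in FA without RAS, against 1.53 ± 0.22 CPM (SD, n = 2) with it.

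The most negative differences by RAS were those of Lhx1 (-11.04), Ccdc194 (-10.82), Cubn (-9.64), Hoxb1 (-8.84) and Col6a5 (-6.53). Among genes called in opposite directions were Cdcp1 (-4.15), Pon2 (-4.13), Bspry (-3.87) and Runx1 (-3.85). For Lhx1, Ccdc194, Cubn and Hoxb1 at least 1 group was at or under 3 counts in every library, as also for Lax1 and Slc26a9, so the sizes of these fitted values are not bounds. Lhx1, a mesendoderm factor, stood at 0 to 0.161 CPM in the 6 libraries without RAS.

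By ERF the most positive differences were those of H19 (7.05), Cldn2 (5.90), Gprc5a (5.33), R3hdml (4.94) and Aqp3 (4.82), and the most negative were those of Pdzrn4 (-8.99), Oasl2 (-7.44), Psmb8 (-6.09), Cxxc4 (-5.90) and Wt1 (-5.20). Cldn2, R3hdml, Pdzrn4, Oasl2 and Cxxc4 had a group at or under 3 counts in every library. No formal test for outlying samples was run, since no group has more than 3 libraries; values without single libraries stand beside the results they move.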

How the results depend on the processing

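The count of genes called in FA without RAS (3371) ranged from 2697 to 3819 over other size factors, no filter, DESeq2 and fits of only the compared groups, and from 2926 to 3678 when 1 library was left out; with the replicate block it was 2794. The difference by RAS (2425) ran from 2211 to 2480 and that by ERF (2308) from 2078 to 2509 when 1 library was left out, and they were 2124 and 2251 with the replicate block. The count moved most without the 2-fold minimum, to 8757, 4988 and 5375. Scaling by total counts alone moved the median of all genes from 0.01 to 0.14, and 12 of 141 called genes named here then fell under the threshold, among them Esrrb (-0.94), Spred1 (-0.97), Il17rd (-0.90) and Tet2 (-0.95). Of these 141 genes, 114 kept their call in every setting run and none of the 196 genes examined reversed. Of 32 list medians 10 changed sign in at least 1 setting, among them the ERK feedback (0.13) and LIF and STAT3 (-0.05) lists, whose medians lie near 0, and the early neural list (0.62, and -0.14 without chromosome 8 genes); the naive and the primed medians kept their signs. The fit with the replicate block, on only the compared groups, changed the calls of Pou3f1, Runx1, Notum, Dnmt3b, Aqp3, Dusp4 and Cubn, of which the last 4 changed without the block too, and no other call among the genes examined that it tested. Depth limits genes under about 1 CPM, such as Wnt8a, Wnt3, Spry4 and Lhx1, and the reference line has 2 FA libraries.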

Other observations

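Over all tested genes 9.96% rose and 6.59% fell, 16.5% in all, and several of the lists below had no larger share of calls, among them the polarity, germline, BMP and Id and ETS repressor lists. In the cadherin and EMT list 4 of 12 tested genes rose: the repressor Zeb2 from 0.215 to 0.387 CPM to 1.97, 5.43 and 11.6 CPM (log2 change 4.29, and 3.51 without FA replicate 3), the splicing factor Esrp1 (3.16), Cdh3 (1.75) and Cdh2 (1.04). Cdh2 did not pass without FA replicate 2 (1.00), FA replicate 3 (0.64), 2iL replicate 1 (0.77) or 2iL replicate 3 (0.98), and Cdh1 had a log2 change of -0.76. Among 15 tested tight junction genes Cgn (1.67) and Cldn2 rose, and Cldn3 (-1.47) and Cldn7 (-1.30) fell. Without FA replicate 1 the falls numbered 6, and without both replicate 1 libraries 4. Cldn7 lost its call without FA replicate 2 (-1.31, adjusted p 0.0878), FA replicate 3 (-0.92), 2iL replicate 1 (-0.82) or 2iL replicate 3 (-1.29). Podxl, a sialomucin of apical membranes and lumens, rose from 12.5 to 15.1 CPM to 52.5, 70.7 and 80.0 CPM (log2 change 2.29), and Crb3, an apical polarity gene, fell from 1.06 to 1.51 CPM to at most 0.570 CPM (-1.89); they were the 2 calls among 14 polarity genes.

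Of 10 DNA methylation enzymes and cofactors Dnmt3a, Dnmt3b and Dnmt3l rose and Tet2 fell (-1.07, and -0.99 without FA replicate 2). Among 13 germline genes of the kind that methylation controls 1 fell, Tex101 (-1.78), and none rose. Of 10 tested mesoderm and endoderm regulators 2 fell and 1, Wnt3, rose on FA replicate 3 as described above. Gsc fell from 7.99 to 11.3 CPM to 1.47 to 2.63 CPM (log2 change -2.23). Kdr (-1.12) fell too and lost its call without FA replicate 2, FA replicate 3 or 2iL replicate 1 (-0.81 to -0.99) and in a fit of only the compared groups (adjusted p 0.0532). Of 13 tested YAP and TEAD genes Ajuba (1.22), Lats2 (1.10) and Ctgf (1.08, and 0.96 without 2iL replicate 3) rose. Among 18 p53 targets Pmaip1 (1.87), a proapoptotic gene, rose and Plk2 (-1.15) and Cdkn1a fell. Of 16 BMP and Id genes Bmp7 fell (-1.34) and Msx1 rose (1.42), at 1.94 CPM or less in every library. Msx1 lost its call without FA replicate 3 (0.91), 2iL replicate 1 (1.23) or 2iL replicate 3 (1.31). None of the 4 ETS repressor genes passed.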
